A study of Danio rerio with 14 samples.

Results

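The transcripts described here are those of the adult zebrafish liver on a regular diet, read from all 7 liver arrays of the regular-diet tank among the 14 arrays of the study. The study put ahcy+/+ and ahcy+/- adults in a pair of tanks kept at 28 °C, one fed the usual amount (regular) and one given excess food (overfed), and took the livers after a month. The 7 regular-diet arrays are 4 from ahcy+/+ (wild-type) and 3 from ahcy+/- (heterozygous) livers, each labelled as the liver of an adult, and the 7 overfed arrays are 5 and 2 of the same genotypes. The product of ahcy splits S-adenosylhomocysteine, which methyltransferases release, into adenosine and homocysteine. The ahcy allele, the sex and the exact age of the fish are not given in the labels. Arrays are named here by genotype and the number in their label: ahcy+/+ 2, 5, 6 and 9, and ahcy+/- 3, 7 and 8. All non-control probe sets, 15502 of 15617 in the table, were ranked by their mean log2 signal over these 7 arrays and by its standard deviation (SD).

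The liver is built mainly of hepatocytes, which release most plasma proteins into the blood, assemble lipoproteins, and run gluconeogenesis, amino acid breakdown and detoxification. In egg-laying fish the liver also makes vitellogenins, the yolk precursors, under the control of oestrogen. The exocrine pancreas secretes digestive enzymes and its islets secrete hormones such as insulin and somatostatin. In adult zebrafish the pancreas is a diffuse tissue along the intestine, close to the lobes of the liver.

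Expression was measured on a 3-prime Affymetrix array with 1 colour, and the deposited values are the authors' log2 probe set summaries. The annotation names a single gene for 10795 of the ranked probe sets, more than 1 gene for 135, and no gene for 4572. Array medians lay between 6.03 and 6.13. Array ahcy+/+ 9 stood apart from the rest before any ranking. Its mean correlation with the other 6 arrays was 0.925, against 0.950 to 0.964 for those 6, and it scored 62.2 on the first principal component (41.6% of the variance), on which the others lay between -30.8 and 10.1. Of 115 control probe sets, 4 (2 for a bacterial thr transcript and 2 for synthetic tags) read 8.39 to 8.68 on this array, and at most 5.73 on the other 6. The difference between the 3-prime and 5-prime GAPDH control probe sets, a sign of RNA integrity or labelling, was -0.34 on this array and 0.07 to 0.85 on the others, with the highest on ahcy+/- 7. The 5-prime GAPDH probe set read 8.745 on ahcy+/+ 9 and 7.82 to 8.08 on the others. The 3-prime GAPDH probe set read 8.41 on ahcy+/+ 9, inside the 8.02 to 8.845 of the others. The same difference for the acta1 control probe sets was 2.25 on ahcy+/- 7 and -1.31 to 0.21 on the other 6, with the lowest on ahcy+/+ 9. Here the 5-prime probe set read 6.30 to 6.65 on all 7 arrays. The 3-prime one read 8.65 on ahcy+/- 7 and 5.11 to 6.78 on the others. Since acta1 is a muscle actin gene, this difference cannot be read as RNA integrity alone. Array ahcy+/- 7 is also the highest for the intestinal and muscle lists described below. The part of these control values in the results was not tested. The main results that rest on array ahcy+/+ 9 are given with and without it, list counts as a comparison added after the values were seen. The sorting of the most variable probe sets into patterns was done only with it. The signal of a probe set depends on its probes as well as on its transcript, so a rank of signal is not a rank of molecules, and the order of neighbouring genes carries no meaning. Genes given below as exceptions within a list, and rtn1a and caprin1b, were named after their values were seen.

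Most probe sets were low and steady. The median probe set had a mean of 6.08 and an SD of 0.24. A mean of at least 8 was reached by 2179 probe sets (14.1%), of at least 10 by 712, of at least 12 by 229 and of at least 14 by 7. An SD of at least 1, a factor of 2 in signal, was found for 327 probe sets (2.11%), and an SD of at least 2 for 59. Without array ahcy+/+ 9, 256 probe sets had an SD of at least 1, and without ahcy+/- 7 it was 321. The median SD stayed between 0.21 and 0.30 for means from 3 to 13 and was 0.07 for means between 13 and 14. The scanner values were not used here, so it cannot be judged whether signals near the top of the scale were compressed. At the low end, control probe sets for synthetic tags, which read no zebrafish transcript, had means between 4.33 and 7.26. A signal in that range need not come from a transcript, and its SD need not describe a transcript. The spread of 18 hybridization control probe sets, which read RNAs added in known amounts and so hold no spread between fish, ranged from 0.06 to 0.37 (SD, n = 7), and 20.7% of the ranked probe sets exceeded the largest of these.

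**Figure D1:**
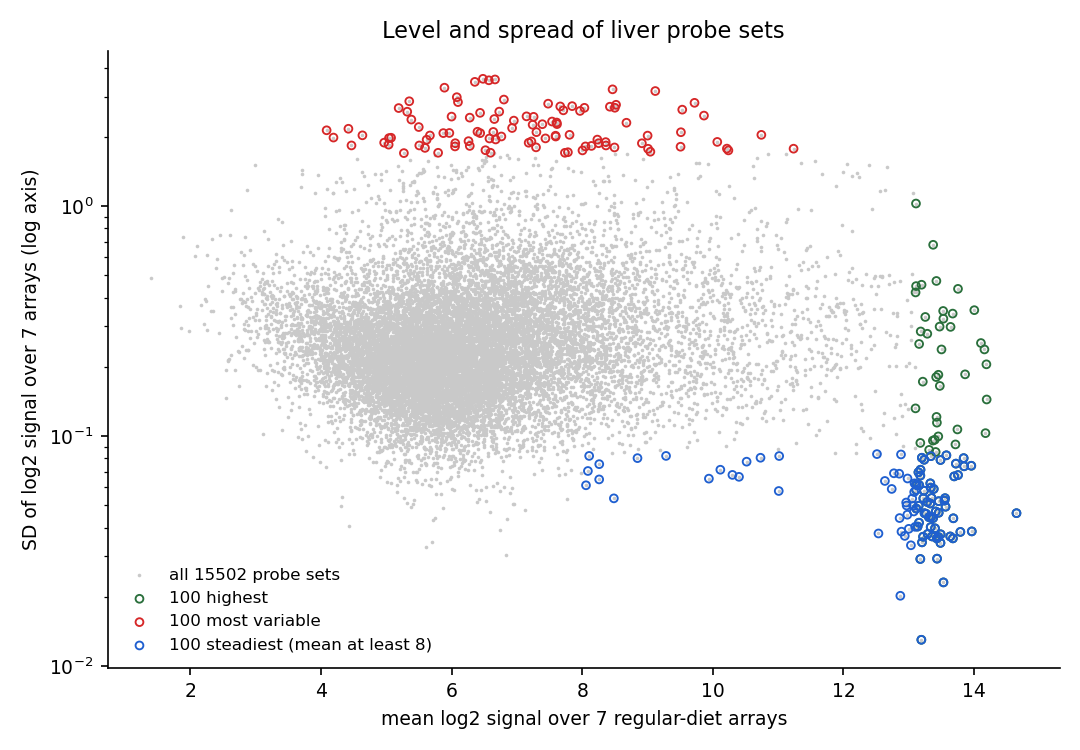
Each point is 1 of 15502 probe sets, with its mean log2 signal over the 7 regular-diet arrays on the horizontal axis and the SD of that signal on a log vertical axis. The 100 highest (green, means from 13.10) and the 100 steadiest (blue, drawn over green where both apply) share 61 probe sets, and the 100 most variable (red, SD from 1.70) lie at means between 4.09 and 11.2.

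Plasma proteins, lipid carriers and the translation machinery held the highest signals. The 100 highest probe sets had means between 13.10 and 14.65, and the next one lay at 13.10 as well. Of these, 83 were assigned to 1 gene and represented 81 genes. Of the cytosolic ribosomal proteins, 49 probe sets were in this group, and 71 of 71 measured genes had a mean of at least 8. The 21 measured hepatocyte markers supplied 13 probe sets, and 20 of the 21 had a mean of at least 8, against 19.4% of all 8793 genes measured. The mean over these markers was at least 12.15 on every array. The lowest of these markers was hnf4a, a transcription factor of the hepatocyte, at 7.26 ± 0.46 (SD, n = 7).

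The highest probe set of a single gene was that of apoa2, an apolipoprotein of high-density lipoprotein. It read 14.25, 14.23 and 14.22 on arrays ahcy+/+ 2, 5 and 6, 13.87 on ahcy+/+ 9, and 14.27, 14.26 and 14.25 on ahcy+/- 3, 7 and 8. Only array ahcy+/+ 9 lay apart, and the SD was 0.14 with it and 0.02 without it. The serine protease inhibitor gene serpina1l followed at 14.19 ± 0.21 (SD, n = 7). The hepatic fatty acid and bile acid binding protein fabp10a stood at 14.16 ± 0.24. Another apolipoprotein, apoc1, stood at 14.10 ± 0.25. In each of these 3 genes array ahcy+/+ 9 was the lowest, at 13.73, 13.62 and 13.53, and the other 6 arrays lay within 14.18 to 14.30. The SD without it was 0.03, 0.04 and 0.02 in the same order. A probe set shared by gstr and tfa was higher than all of these, at 14.65 ± 0.05, and cannot be given to either gene.

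Carriers of metal, haem and retinol formed a second group of secreted proteins. Transferrin (tfa), the iron carrier, read from 13.80 on array ahcy+/+ 9 to 14.04 on ahcy+/+ 5, with a median of 13.98. The retinol carrier rbp4 lay between 13.64 and 13.82 with a median of 13.66, and here array ahcy+/+ 9 fell inside the range of the others. Hemopexin (hpxa), which binds free haem, read 12.75 on ahcy+/+ 9 and 13.58 to 13.79 on the other 6. Fetuin B (fetub), a plasma inhibitor of metalloproteases, read 12.80 on ahcy+/+ 9, 13.65 on ahcy+/+ 5 and 13.92 to 14.01 on the remaining 5. The secreted liver protein leg1.1 read 12.91 on ahcy+/+ 9 and 13.69 to 13.86 elsewhere. The SD of hpxa, fetub and leg1.1 was 0.35, 0.44 and 0.34 over 7 arrays and 0.09, 0.13 and 0.06 without ahcy+/+ 9. The apolipoprotein gene apoa1a had another pattern, with no array apart: 13.31, 13.24, 13.55 and 13.12 in ahcy+/+ 2, 5, 6 and 9, and 13.65, 13.95 and 13.90 in ahcy+/- 3, 7 and 8. Its 3 heterozygous values lay above its 4 wild-type values, and the test of genotype over all probe sets, given at the end, called no probe set.

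Metabolic enzymes among the highest genes included the cytosolic malate dehydrogenase mdh1aa, the glycolytic enzyme gapdh, and ahcy itself. The enzyme genes bhmt, hpda, fbp1b and uox, ranked 47th, 71st, 96th and 99th, were also among the 100 highest. mdh1aa read 12.97 on ahcy+/+ 9 and 13.72 to 13.81 on the others, and its second probe set read 12.13 on ahcy+/+ 9 and 13.15 to 13.35 on the others. Both probe sets, which read the same RNA, correlated with r = 0.99 over the 7 arrays and with r = 0.60 without ahcy+/+ 9. gapdh read 12.97 on ahcy+/+ 9 and 13.52 to 13.65 on the others, with an SD of 0.24 over 7 arrays and 0.06 without that one. The mitochondrially encoded cytochrome c oxidase subunit COX1 had 3 probe sets among the 100 highest, with means of 13.86, 13.84 and 13.72. The first of them fell from 13.80 or more on 6 arrays to 13.48 on ahcy+/+ 9, and the other 2 had an SD of 0.08 each over all 7.

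The transcript of ahcy, the gene that differs between the genotypes pooled here, ranked 79th by mean signal and was among the 100 steadiest. It read 13.15, 13.16, 13.23 and 13.08 on ahcy+/+ 2, 5, 6 and 9, and 13.32, 13.18 and 13.27 on ahcy+/- 3, 7 and 8. The groups overlapped, and the SD over all 7 was 0.08. What the probes of this probe set cover relative to the ahcy allele is not known here, so the signal does not check the genotype labels.

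**Figure D2:**
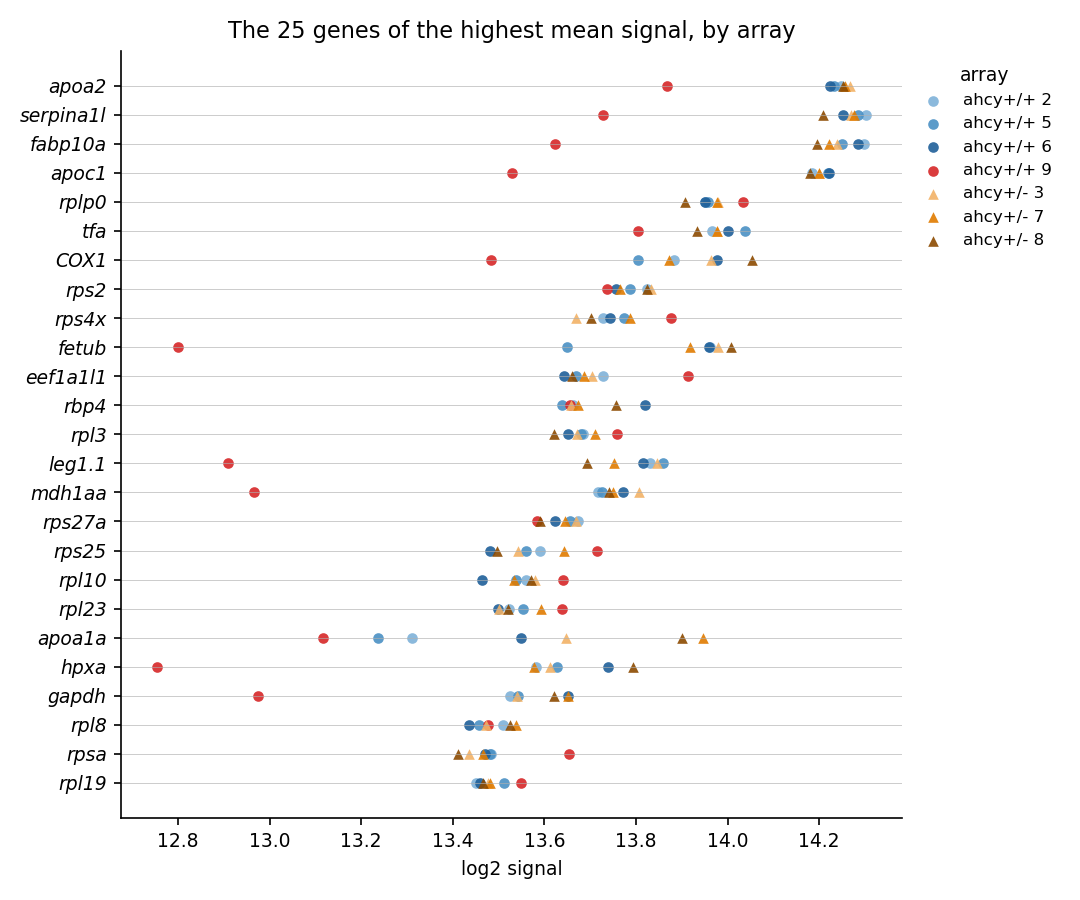
The log2 signal of the 25 single-gene probe sets of the highest mean is plotted for each of the 7 arrays, with wild-type arrays as circles and heterozygous arrays as triangles. Array ahcy+/+ 9 (red) is the lowest for apoa2, serpina1l, fabp10a, apoc1, tfa, COX1, rps2, fetub, leg1.1, mdh1aa, rps27a, apoa1a, hpxa and gapdh. It is the highest for rplp0, rps4x, eef1a1l1, rpl3, rps25, rpl10, rpl23, rpsa and rpl19.

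Array ahcy+/+ 9 was not low throughout. Of the 100 highest probe sets it was the lowest of the 7 arrays for 40 and the highest for 30. It was the highest for eef1a1l1, an elongation factor of translation, at 13.91 against 13.64 to 13.73 on the others, and for rpsa, a ribosomal protein of the small subunit, at 13.65 against 13.41 to 13.48. The mean signal over the 21 hepatocyte markers was 12.15 on this array and 12.70 to 12.81 on the other 6. That over 25 plasma transport proteins and protease inhibitors was 11.14 against 11.63 to 11.85, and that over 12 coagulation genes was 10.71 against 11.20 to 11.42. In bulk tissue, fewer cells of a type and less RNA per cell cannot be told apart.

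Over all 7 arrays, most of the steadiest transcripts were ribosomal. Among the 2179 probe sets with a mean of at least 8, the 100 of the lowest SD ranged from 0.013 to 0.0835, and the next one lay at 0.0836. Of these, 62 were cytosolic ribosomal protein probe sets. Over the 71 measured ribosomal protein genes the median SD was 0.05, against 0.23 over all 8793 genes, and their mean signal on an array ranged only from 13.16 to 13.24. The steadiest of all was rpl17, a protein of the large subunit, which read 13.20, 13.18, 13.17 and 13.19 on ahcy+/+ 2, 5, 6 and 9 and 13.20, 13.21 and 13.19 on ahcy+/- 3, 7 and 8. The cytosolic chaperone hsp90ab1 followed, between 12.84 and 12.90 with a median of 12.87. A second probe set of hsp90ab1 had a mean of 6.32 and an SD of 0.17, and the correlation of both over the 7 arrays was -0.45, so the low spread belongs to the bright probe set. Without array ahcy+/+ 9, the 100 steadiest shared 67 with those named here. With SD divided by the running median SD at the same signal, they shared 60. Leaving out array ahcy+/+ 9 gave apoa2 and apoc1 SDs of 0.0158 and 0.0176, between 0.0142 for rpl17 and 0.0209 for hsp90ab1. The median SD of the ribosomal protein genes was then 0.05, against 0.20 over all genes.

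Few steady transcripts lay below the top of the scale. Of the 100 steadiest, 16 had a mean under 12 and 9 a mean under 10. The genes in this paragraph, other than mob4, were named after their values were seen. The histone deacetylase hdac1 read 8.37 to 8.52 with an SD of 0.05, the lowest on array ahcy+/+ 9. The mitochondrial phosphoenolpyruvate carboxykinase pck2 read 10.94 to 11.09 with an SD of 0.06. On the 7 overfed arrays pck2 had an SD of 0.22, between 11.27 and 11.87, and hdac1 one of 0.08. The Rab regulator gdi2 (mean 9.94, SD 0.07), the phosphatase subunit ppp2cb (10.40, SD 0.07), the translation repressor eif4ebp2 (10.30, SD 0.07) and the elongin subunit elob (8.26, SD 0.06) were as steady. One probe set of mob4 had a mean of 8.09 and an SD of 0.07, while its other probe set had 8.15 and 0.16.

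Genes that the literature uses as references for zebrafish transcripts differed widely in spread. Of 40 listed genes, 30 were measured. Their median SD was 0.17, against 0.23 over all genes, and 8 probe sets of this list were among the 100 steadiest. Without array ahcy+/+ 9 the median SD was 0.11, against 0.20. The ribosomal genes rpl13, rpl7, rpl8, rplp0, rpl13a and rps18 had SDs between 0.03 and 0.05, and the peptidyl-prolyl isomerase ppiaa had 0.04. The elongation factor eef1a1l1 had an SD of 0.09, and lsm12b, an RNA-binding protein gene at a mean of 9.63, had 0.11. At the other end stood hprt1, an enzyme of purine salvage, which read 6.29, 6.76, 6.79 and 7.64 on ahcy+/+ 2, 5, 6 and 9 and 6.54, 6.43 and 8.17 on ahcy+/- 3, 7 and 8. The ubiquitin gene ubb had an SD of 0.60 and read 12.54 and 12.58 on ahcy+/+ 9 and ahcy+/- 8, and 11.14 to 11.77 on the other 5. For hprt1 and ubb the same 2 arrays were the highest. The cytoskeletal genes tuba1b and actb1 had SDs of 0.54 and 0.50, and actb2 had 0.24. Array ahcy+/+ 9 was the highest for tuba1b, at 8.37 against 6.81 to 7.44, while array ahcy+/- 7 was the highest for actb1, at 12.51.

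**Figure D3:**
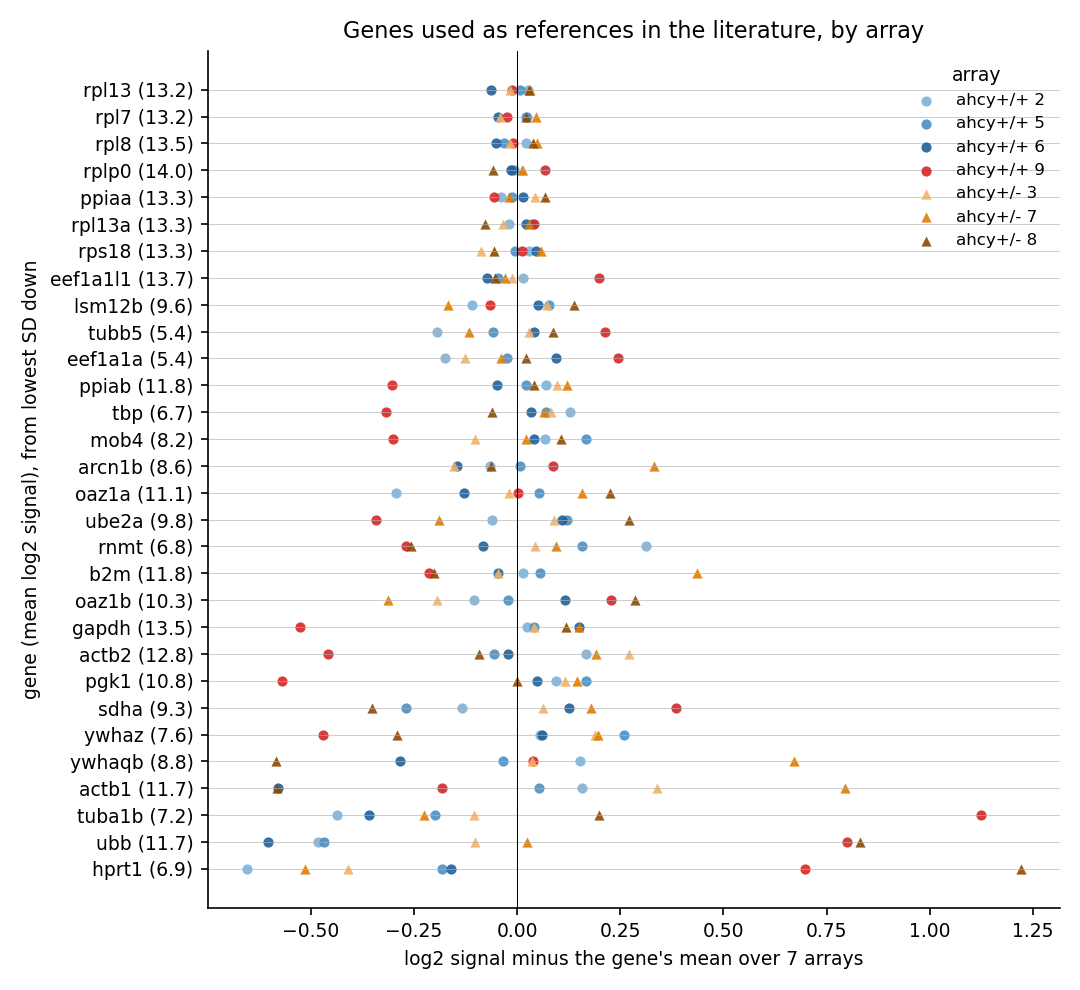
For 30 measured genes that the literature uses as references, the log2 signal on each array minus the gene's mean over the 7 arrays is plotted, with the genes ordered from the lowest SD down and their mean signal in brackets. The ribosomal genes at the top stay within 0.1 of their mean, and hprt1, ubb and tuba1b at the bottom spread over more than 1 on the log2 scale.

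The most variable transcripts fell into few patterns over the arrays. The 100 probe sets of the highest SD ranged from 1.70 to 3.58, and the next one lay at 1.70. None was among the 100 highest, and their means lay between 4.09 and 11.2. Array ahcy+/- 7 was the highest for 47 of them, ahcy+/+ 9 for 26 and ahcy+/- 3 for 13. To sort them, each was correlated over the 7 arrays with the mean signal of each of 10 lists, and assigned to its best list where r reached 0.9, a limit chosen after the values were seen. These lists were the markers of hepatocytes, exocrine and endocrine pancreas, intestine, skeletal muscle, erythrocytes, leukocytes and ovary, the vitellogenin and oestrogen list, and the cell cycle list. By this rule 40 followed the intestinal list, 11 the exocrine pancreas list, 10 the vitellogenin list, 6 the endocrine pancreas list and 1 the hepatocyte list, and 32 followed none. Members of the lists themselves were 4, 5, 4 and 4 of the first 4 counts. The sorting was not repeated without array ahcy+/+ 9. Leaving it out, the 10 probe sets of the vitellogenin group had SDs of 0.10 to 0.63 and that of the hepatocyte group, cyp2k22, 0.40. The mean of the vitellogenin list correlated with that of the hepatocyte list at r = -0.99 and of the endocrine list at r = 0.87. The groups are therefore not separate from each other. Without array ahcy+/+ 9, 88 of the 100 had an SD of at least 1, and 78 were again among the 100 most variable. Without array ahcy+/- 7, 82 were again among them.

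**Figure D4:**
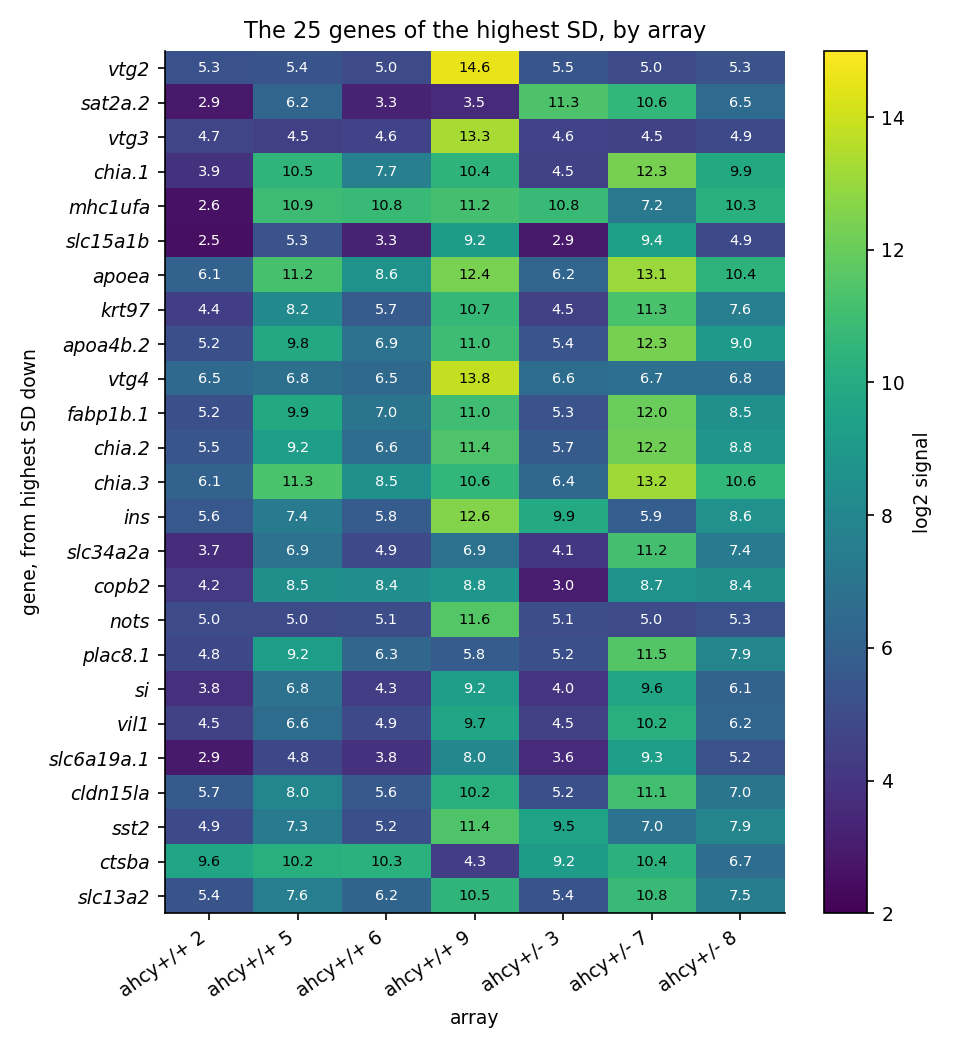
The log2 signal of the 25 single-gene probe sets of the highest SD is shown by colour and number for each of the 7 arrays. The vitellogenins and nots are high on array ahcy+/+ 9 only, the intestinal genes such as chia.2, vil1 and slc15a1b are highest on arrays ahcy+/- 7 and ahcy+/+ 9 and lowest on ahcy+/+ 2 and ahcy+/- 3, and ins is highest on ahcy+/+ 9 and ahcy+/- 3.

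The widest range belonged to the vitellogenins, and it rested on 1 array. vtg2 read 5.26, 5.40 and 4.998 on ahcy+/+ 2, 5 and 6, 14.56 on ahcy+/+ 9, and 5.46, 5.01 and 5.31 on ahcy+/- 3, 7 and 8, a range of 758-fold. vtg3 read 13.32 on ahcy+/+ 9 and 4.48 to 4.92 on the other 6. vtg4 read 13.82 on ahcy+/+ 9 and 6.46 to 6.81 on the other 6. In each of them array ahcy+/+ 9 was high and the other 6 lay close together. The values of these genes on the other 6 arrays lay within the range of the synthetic tag controls, so the fold range has no firm lower end. Without it the SD of vtg2, vtg3 and vtg4 was 0.20, 0.15 and 0.15, so none of them would rank among the variable genes. A pair of probe sets shared by several vitellogenin genes, which include vtg5 and vtg6, had the largest SDs of the table, 3.58 and 3.56, in the same pattern. The aspartic protease gene nots, which is expressed in the fish liver together with the vitellogenins, read 11.56 on ahcy+/+ 9 and 4.98 to 5.26 elsewhere.

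The oestrogen receptor genes moved to different degrees with the vitellogenins. esr1, the receptor through which vitellogenins are induced, read 8.46 on ahcy+/+ 9 and 5.36 to 5.72 on the other 6. esr2b read 10.43 on ahcy+/+ 9, 9.20 on ahcy+/- 8 and 6.97 to 8.39 on the remaining 5, while esr2a stayed between 6.22 and 6.84. The yolk-processing protease ctsd had an SD of 0.18. Of the 9 measured genes on the vitellogenin and oestrogen list, 6 had an SD of at least 1, against 2.34% of all genes measured, and without array ahcy+/+ 9 it was 0 of 9, against 1.79%. The 10 measured markers of the ovary had means between 4.82 and 6.69 and SDs of at most 0.43, and their mean on array ahcy+/+ 9 was 5.75, inside the range of 5.53 to 5.92 over the other 6. The means of these ovary markers lay within the range of the synthetic tag controls, so their low spread need not describe transcripts. On the 7 overfed arrays, which come from another tank, vtg2 ranged from 6.71 to 13.46 and the 2 shared vitellogenin probe sets from 8.97 to 14.13.

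The largest group by this sorting, 40 probe sets, was the one whose signal followed the intestinal list. The chitinase chia.3 read 6.09, 11.32, 8.55 and 10.63 on ahcy+/+ 2, 5, 6 and 9, and 6.36, 13.15 and 10.61 on ahcy+/- 3, 7 and 8. The apolipoprotein gene apoea read 6.09, 11.23, 8.63 and 12.38 on ahcy+/+ 2, 5, 6 and 9, and 6.23, 13.07 and 10.40 on ahcy+/- 3, 7 and 8. Both were lowest on ahcy+/+ 2 and ahcy+/- 3 and highest on ahcy+/- 7. With the list mean, apoea reached r = 0.95 and is among the 40. chia.3, itself a member of the list, reached r = 0.88 and so is not. The microvillus protein gene vil1 read 9.69 on ahcy+/+ 9 and 10.18 on ahcy+/- 7, and 4.49 to 6.62 on the other 5. The peptide transporter slc15a1b read 9.16 and 9.37 on the same pair and 2.55 to 5.32 on the others. Further genes in this pattern were the disaccharidase si, the neutral amino acid transporter slc6a19a.1, the dicarboxylate transporter slc13a2, the tight junction gene cldn15la and the lipid binding protein fabp1b.1, with SDs between 2.28 and 2.71. In these 5 genes ahcy+/- 7 was the highest array and ahcy+/+ 9 the next.

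Of 15 measured intestinal markers, 10 had an SD of at least 1, and 9 without either array ahcy+/+ 9 or array ahcy+/- 7. Over all genes the share was 2.34%, and 1.79% and 2.31% without these arrays in the same order. The mean of the list was 6.22, 7.85, 6.94 and 9.47 on ahcy+/+ 2, 5, 6 and 9, and 6.46, 9.60 and 7.76 on ahcy+/- 3, 7 and 8. The exceptions were of several kinds. slc6a19b, with an SD of 2.21, varied widely but in another order. It read 10.40 on ahcy+/+ 9, 4.29 to 5.18 on most others, and lowest, 3.90, on ahcy+/- 7. It was sorted with the vitellogenin list (r = 0.98, against 0.40 with the intestinal list). Other exceptions had a high or a low signal throughout. rbp2a, a retinol binding protein, and lgals2b, a galectin, had means of 13.04 and 11.58 and so a high signal on every array, while fabp6, alpi.1 and cdx1a stayed between 4.69 and 6.13 throughout. The values of fabp6, alpi.1 and cdx1a lay within the range of the synthetic tag controls, so their low spread need not describe transcripts. The brush border alkaline phosphatase alpi.2, a relative of alpi.1, read 9.96 and 9.80 on ahcy+/+ 9 and ahcy+/- 7 and 5.75 to 6.71 on the others. On the overfed arrays the list mean lay between 5.85 and 6.96. The part of intestinal tissue in these values was not tested.

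Several genes of other lists were also highest on arrays ahcy+/+ 9 and ahcy+/- 7. nr0b2a, the nuclear receptor that represses bile acid synthesis in mammals, read 6.35, 7.96, 6.43 and 9.69 on ahcy+/+ 2, 5, 6 and 9, and 6.98, 11.01 and 7.60 on ahcy+/- 3, 7 and 8, and its second probe set followed it with r = 0.997. The lectin gene mbl2, an activator of complement, read 4.22 on ahcy+/+ 2 and 10.02 on ahcy+/- 7. The retinoic acid hydroxylase cyp26a1 had an SD of 1.99 and the respiratory chain gene ndufa4b one of 2.08, while the median SD of the 87 respiratory chain genes was 0.23. The glutathione peroxidase gpx1b read 10.70 and 11.34 on ahcy+/+ 9 and ahcy+/- 7 and 7.08 to 8.62 on the others. The lactate dehydrogenase subunit ldha read 7.86 and 8.79 on that pair and 5.11 to 6.12 on the others. The intestinal list mean was the highest on the same 2 arrays, and its part in these genes was not tested.

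Digestive enzymes of the exocrine pancreas followed another order of arrays. The carboxypeptidase cpa1 read 6.51, 7.96, 8.09 and 11.47 on ahcy+/+ 2, 5, 6 and 9, and 12.26, 9.51 and 10.77 on ahcy+/- 3, 7 and 8. The trypsin gene prss1 read from 10.70 on ahcy+/+ 2 to 13.95 on ahcy+/- 3, with a median of 12.76, and the chymotrypsin gene ctrb.1 from 10.70 to 13.96 with a median of 12.78. Both were lowest on ahcy+/+ 2 and highest on ahcy+/- 3. Of 19 measured genes of the list, 17 had an SD of at least 1, against 2.34% of all genes. It was also 17 without array ahcy+/+ 9, against 1.79%. A mean of at least 8 was reached by 17 of the 19, against 19.4% of all genes. The exceptions were amy2al1, an amylase gene with an SD of 0.46, and ptf1a, a transcription factor of acinar cells that stayed between 5.28 and 6.04. The values of ptf1a lay within the range of the synthetic tag controls. The mean of the list ran from 8.58 on ahcy+/+ 2 to 12.40 on ahcy+/- 3, and the other 5 arrays lay between 9.58 and 11.84. On the overfed arrays it lay between 7.17 and 11.68.

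Hormone genes of the pancreatic islets were highest on array ahcy+/+ 9, and otherwise shared much of the exocrine order. The means of the endocrine and exocrine lists correlated at r = 0.76 over the 7 arrays. Leaving out array ahcy+/+ 9, both means were highest on ahcy+/- 3, next on ahcy+/- 8 and lowest on ahcy+/+ 2. Insulin (ins) read 5.57, 7.40, 5.81 and 12.58 on ahcy+/+ 2, 5, 6 and 9, and 9.94, 5.91 and 8.56 on ahcy+/- 3, 7 and 8. The somatostatin gene sst2 read 11.44 on ahcy+/+ 9, 9.54 on ahcy+/- 3 and 4.92 to 7.91 on the other 5. The glucagon gene gcga read 10.87 on ahcy+/+ 9 and 7.17 on ahcy+/- 3, with 5.46 as the lowest of the others. All 3 were highest on ahcy+/+ 9 and second on ahcy+/- 3. Of 10 measured endocrine markers, 4 had an SD of at least 1, and these 4 were hormones: ins, gcga, sst1.1 and sst2. Without array ahcy+/+ 9 the count was 3. Over all genes the share was 2.34%, and 1.79% without that array. The islet transcription factors pdx1, neurod1, isl1a and pax6b had means between 4.82 and 6.32 and SDs of at most 0.42. These means lay within the range of the synthetic tag controls, so the low SDs need not describe transcripts. Both probe sets of the reticulon gene rtn1a, which is in no list, followed the endocrine list.

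The list means of other cell types moved less than those of the intestine and pancreas. Skeletal muscle markers were highest on ahcy+/- 7, at a list mean of 6.81 against 6.16 to 6.43, and the myosin light chain gene mylpfa read 7.87 there, 6.57 on ahcy+/- 8 and 5.73 to 5.79 on the other 5. None of the 21 muscle markers had an SD of at least 1 in its probe set of the highest mean, while a second probe set of mylpfa had 1.32. Erythrocyte markers ran from 6.24 on ahcy+/+ 9 to 7.51 on ahcy+/+ 6, and the alpha globin hbaa1 from 10.57 to 13.20 on the same 2 arrays. Of 14 erythrocyte markers, 2 had an SD of at least 1. Leukocyte markers ran from 6.50 on ahcy+/- 8 to 7.34 on ahcy+/- 7, with 0 of 18 at an SD of at least 1. Of 26 chaperones and other genes of the endoplasmic reticulum, 0 had an SD of at least 1, and their mean was highest on ahcy+/- 7, at 9.88, while the lowest array, ahcy+/+ 2, had 9.28. Over all genes 2.34% had such an SD, so a count of 0 in lists of this size does not set them apart. The median SDs of the muscle, erythrocyte, leukocyte and endoplasmic reticulum lists were 0.40, 0.42, 0.33 and 0.38, against 0.23 over all genes. Without array ahcy+/- 7 they were 0.23, 0.44, 0.30 and 0.31, against 0.23. The median levels of the muscle, erythrocyte and leukocyte lists, 6.04, 6.30 and 6.43, lay within the range of the synthetic tag controls. The small movement of these list means need not describe the cell types. The parts of these cell types in the results were not tested.

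**Figure D5:**
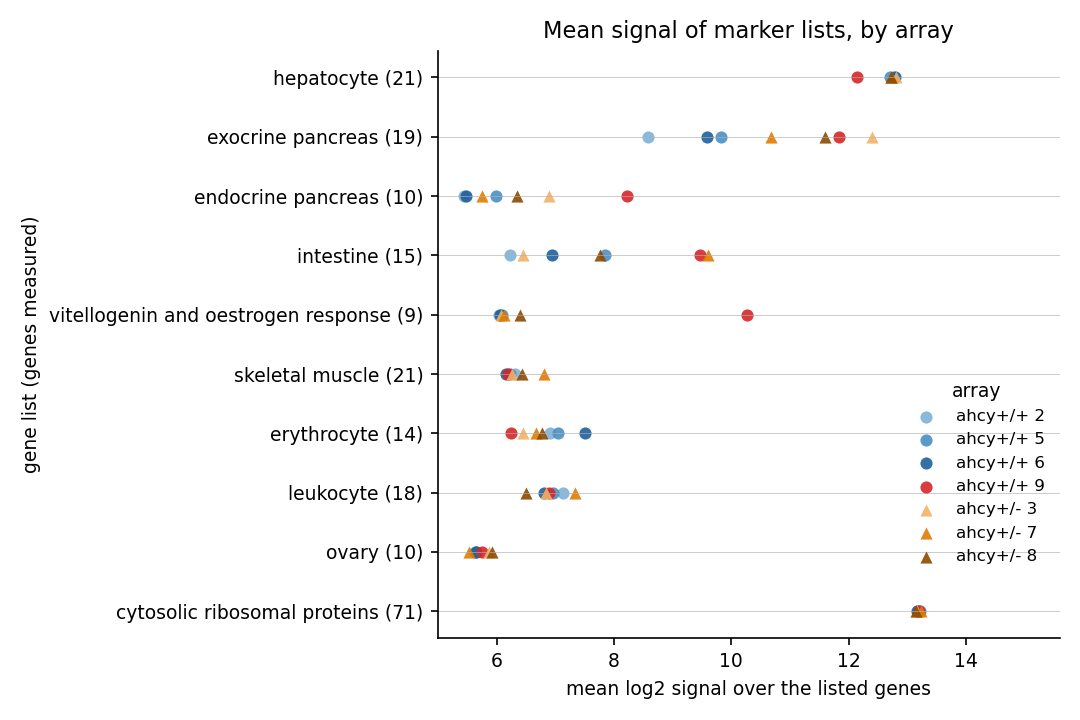
The mean log2 signal over the measured genes of each of 10 lists is plotted for each array, with the number of genes in brackets. The hepatocyte and ribosomal lists stay within 1 on the log2 scale, the exocrine pancreas list runs from 8.58 to 12.40 and the intestinal list from 6.22 to 9.60, and the vitellogenin list is at 10.26 on array ahcy+/+ 9 and at 6.04 to 6.41 on the others.

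A further pattern set arrays ahcy+/+ 9 and ahcy+/- 8 against the other 5. Probe sets were counted in which 1 array, or both arrays of a pair, lay at least 1 (log2) above or below all others, a count added after the values were seen. Of the 21 pairs, ahcy+/+ 9 with ahcy+/- 7 had 103 such probe sets, all of them higher. The pair ahcy+/+ 9 with ahcy+/- 8 had 52, with 22 higher and 30 lower. The pair ahcy+/+ 2 with ahcy+/- 3 had 20, and the median pair had 2. Alone, ahcy+/+ 9 had 280 (1.81% of the ranked probe sets) and ahcy+/- 7 had 136.

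The genes of this pattern named here were in part chosen after their values were seen. Lower in ahcy+/+ 9 and ahcy+/- 8 was tefa, a transcription factor with daily rhythms, which read 10.56, 9.79, 10.07 and 7.82 on ahcy+/+ 2, 5, 6 and 9, and 10.41, 9.62 and 7.61 on ahcy+/- 3, 7 and 8. The liver transcription factor cebpa read 7.50 and 8.02 on the pair and 9.73 to 10.65 on the other 5. The growth regulator mycb read 8.46 and 8.29 on the pair and 10.38 to 10.98 on the others. The cytokine signalling inhibitor socs3a, the growth factor igf2b and the transcription factor prox1a of lymphatic and liver development showed the same split, with 6.50 and 6.66, 8.56 and 7.80, and 6.79 and 7.02 on ahcy+/+ 9 and ahcy+/- 8. Another gene with daily rhythms, bhlhe40, also had its lowest values on the pair, 8.11 and 7.73, but by less than the limit of 1 from the next array. Higher in the pair was the lipoprotein lipase inhibitor angptl4, at 10.35 and 10.16 against 5.92 to 7.21. On the 7 overfed arrays cebpa reached at most 8.22, mycb at most 7.28 and tefa at most 8.45, while bhlhe40 lay between 10.20 and 11.49. For the first 3 of these genes the overfed values were all below those of the other 5 regular-diet arrays, and for bhlhe40 they were not. Tank and diet cannot be told apart.

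Metabolic lists differed in spread. The median SD was 0.26 for methionine and one-carbon metabolism, 0.25 for fatty acid oxidation, 0.33 for glycolysis and gluconeogenesis, 0.36 for fatty acid and triglyceride synthesis, 0.38 for xenobiotic metabolism and 0.51 for bile acid synthesis and transport, against 0.23 over all genes. Without array ahcy+/+ 9 these medians were 0.19, 0.19, 0.23, 0.36, 0.25 and 0.31 in the same order, against 0.20. Only 6 of 21 genes of the bile acid list were measured. The most variable of them, nr0b2a (SD 1.75), was sorted with the intestinal list. An SD of at least 0.5 was found for 9.94% of all ranked probe sets, so a count of 1 in a list of 25 or 26 genes does not set it apart. Of 25 genes of methionine and one-carbon metabolism, only the S-adenosylmethionine synthetase mat2aa had an SD of at least 0.5, at 1.28, with 10.75 on ahcy+/+ 9, 9.31 on ahcy+/- 8 and 7.33 to 8.82 on the others. The liver isoform mat1a had an SD of 0.20. Of 26 genes of fatty acid oxidation, 1 had an SD of at least 0.5. This was cpt1b, which starts the import of fatty acids into mitochondria and read 8.42 on ahcy+/+ 9, 7.56 on ahcy+/- 8 and 3.27 to 6.61 on the others. Of 18 genes of fatty acid and triglyceride synthesis, 6 had an SD of at least 0.5, against the 9.94% of all ranked probe sets. Among them scd, the stearoyl-CoA desaturase, read 9.34 on ahcy+/- 8 and 5.95 to 7.52 on the other 6, while fads2 had an SD of 0.20. Of 35 genes of xenobiotic metabolism, 4 had an SD of at least 1, against 2.34% of all genes. Without array ahcy+/+ 9 it was 2, against 1.79%. Of the 4, cyp2k22 read 7.29 on ahcy+/+ 9 and 11.29 to 12.53 on the others, and cyp2k6 read 8.58 on ahcy+/+ 9 and 4.70 to 5.67 on the others. Members of the same cytochrome P450 subfamily lay apart on this array in opposite directions. The acute phase gene crp read 9.22 on ahcy+/+ 9 and 11.99 to 13.43 on the others, and crp3 11.88 against 13.40 to 13.87. Complement genes had a median SD of 0.47, which is above the 0.23 over all genes, and 0.27 without array ahcy+/+ 9, against 0.20. Among them c7b read 11.10 on ahcy+/+ 9 and 6.66 on ahcy+/+ 2. The 42 proteasome subunits and 65 splicing factors had median SDs of 0.19 each.

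In some probe sets a wide step parted the arrays. In 43 probe sets the largest step between neighbouring arrays was at least 3 (log2). In 26 of them 1 array was high and 6 were low, and the high array was ahcy+/+ 9 in 19, ahcy+/- 7 in 5, and ahcy+/+ 5 and ahcy+/- 8 in 1 each. In 4 of them 1 array alone was low. The class I histocompatibility gene mhc1ufa was such a case, at 2.63 on ahcy+/+ 2, 7.22 on ahcy+/- 7 and 10.25 to 11.18 on the other 5. The acetyltransferase gene sat2a.2 read 11.35 and 10.62 on ahcy+/- 3 and 7 and 2.89 to 6.54 on the others. On the overfed arrays it ranged from 2.92 to 12.12, and it had the largest SD of that tank.

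Other probe sets of a gene served as a check on the same RNA with other probes. One probe set of copb2, a subunit of the vesicle coat, read 4.17 on ahcy+/+ 2, 3.003 on ahcy+/- 3 and 8.38 to 8.84 on the other 5. The others of this gene had SDs of 0.16 and 0.20, and correlated with it at r = 0.13 and 0.86. For apoa4b.2, an intestinal and hepatic apolipoprotein gene, one probe set had an SD of 2.76 at a mean of 8.52 and the other an SD of 0.67 at 11.49, with r = 0.91. Over all genes with more than 1 probe set, the median correlation was 0.27 where the more variable one had an SD under 0.25 (558 genes), 0.38 for SDs up to 0.5 (748 genes), 0.55 for SDs up to 1 (195 genes) and 0.93 above 1 (38 genes). In 20 of the last 38 genes the second probe set too had an SD of at least 0.5.

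The 7 overfed arrays, which were not used in the ranking, show how far the ranks recur in fish of another tank. Of the 100 highest probe sets, 90 were among the 100 highest there. Of the 100 steadiest, 62 recurred, and 4 had an SD above 0.2 there, among them pck2 and caprin1b, an RNA-binding protein gene (SD 0.34). Of the 100 most variable, 31 recurred, 70 were in the upper 5% of SDs there and 28 had an SD under 0.5. The phosphate transporter slc34a2a had an SD of 2.55 on the regular diet and 0.33 in the overfed tank, and plac8.1 one of 2.45 and 0.11. Their overfed means, 4.26 and 4.87, were as low as synthetic tag controls read on the regular diet. These small overfed SDs therefore need not describe transcripts. vtg2, sat2a.2 and ins had SDs of 2.47, 3.93 and 1.64 in the overfed tank. An SD of at least 1 was found for 172 probe sets there and for 327 on the regular diet, a difference that was not tested.

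The ranking pools both genotypes, so the difference between them on the regular diet was tested. With limma and Benjamini-Hochberg adjustment, 0 of 15134 tested probe sets (0%) differed between the 3 ahcy+/- and 4 ahcy+/+ arrays at an adjusted p of 0.05, and the lowest adjusted p was 0.9996. At an unadjusted limma p of 0.05, 459 of the 15134 passed, fewer than the 1 in 20 that chance gives where nothing differs. In the 13 other fits 0 were called at an adjusted p of 0.05. At an unadjusted limma p of 0.05, 1062 of 15126 passed without ahcy+/- 7 and 932 of 15117 without ahcy+/+ 9. Both counts are more than 1 in 20, so the low count of the main fit depends on these arrays. In the remaining fits fewer than 1 in 20 passed, and the lowest count was 193 of 9513, with a filter at 6 on at least 2 arrays. A p that misses the threshold does not show that the genotypes are alike. The median SD over all probe sets was 0.24 within genotypes and 0.24 when they were pooled. No label states whether an array holds the RNA of 1 fish or of a pool. The p-values measure the spread among arrays within the 4 groups of both tanks.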

How the data were processed

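RNA of zebrafish liver was measured on 14 Affymetrix arrays with 1 colour. The authors deposited log2 probe set values; per the submitters' processing notes the tools were GCRMA and Partek, whose versions and order are not given in the sources used here. That the scale is log2 was read from the values, 0.703 to 14.7 over these 7 arrays. Symbols came from the platform annotation, matched by Entrez ID (10711 matched, 1 updated). Means and SDs were taken over the 7 regular-diet arrays after leaving out 115 controls. Named were the 25 highest, 25 most variable and 20 steadiest single-gene probe sets, ahcy, and up to 4 highest and 4 most variable genes per list; others are marked as chosen after their values were seen. A gene of a list is represented by its probe set of the highest mean. Genotype was tested with limma 3.58.1 in R 4.3.3 on all 14 arrays as 4 groups, over probe sets above 4 on at least 2 arrays, after a test on simulated data. Precision is limited by the number of arrays. The members, lists and limits were chosen with earlier results of these data known. Alternatives were median centring, quantile normalization, other measures of spread, other floors and leaving out each array.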

Additional observations from a re-analysis of the deposited data

Results flagged for a closer look

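A value was singled out when its gap to the nearest other array, as a share of the range of the 7 arrays, exceeded Dixon's critical value for 7 values, which chance gives in about 1 of 20 groups. Many of the genes were named for their mean or SD over these same 7 values, so their count is a description only. Of 66 named genes, 15 met this, and in all 15 the array was ahcy+/+ 9. It was low for apoa2 (share 0.893), serpina1l (0.837), fabp10a (0.848), apoc1 (0.938), fetub (0.703), leg1.1 (0.825), mdh1aa (0.893), hpxa (0.792) and gapdh (0.811). It was high for eef1a1l1 (0.679), rpsa (0.704), vtg2 (0.951), vtg3 (0.95), vtg4 (0.952) and nots (0.958). Of 40 lists, the same array was low in the mean of the hepatocyte list (0.829), the plasma transport list (0.694) and the coagulation list (0.684), and high in the vitellogenin list (0.914). Array ahcy+/- 7 was high in the skeletal muscle list (0.571) and the endoplasmic reticulum list (0.628). These genes are not independent of each other, since they were read on the same array.

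Signal was also seen outside the ranked probe sets. On array ahcy+/+ 9, 4 control probe sets that read no zebrafish transcript stood at 8.67 and 8.68 (both for a bacterial thr transcript) and at 8.39 and 8.65 (both for synthetic tags), against at most 5.73 on the other regular-diet arrays and 6.12 on the overfed arrays. Their part in the signals of that array was not tested.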

How the results depend on the processing

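The 100 highest probe sets shared 94 to 100 with those obtained after median centring, after quantile normalization and with the median over arrays, and 95 to 99 when 1 array was left out. The 100 most variable shared 99 after each rescaling, 90 with the SD within genotypes, 76 above a mean of 6 and 78 to 97 when 1 array was left out, and 60 with the median absolute deviation, which ignores a single deviating array by its construction. The 100 steadiest shared 87 after centring and 71 after quantile normalization, 94 with the SD within genotypes, 74 and 91 with floors of 6 and 10, 67 to 92 when 1 array was left out, 58 with the median absolute deviation and 60 with the SD relative to the running median. The 91 here, and the 76 of the most variable above a mean of 6, only count the members above the raised floor. They were fixed in advance and do not test stability. The count of SDs of at least 1 was 327 to 351 under the rescalings and within genotypes, and 256 to 371 when 1 array was left out, the lowest being without ahcy+/+ 9. Leaving out that array moved the SD of 20 of 66 named genes by more than 1.5 times, and leaving out any other moved at most 3. Median centring moved the SD of 9 and quantile normalization that of 14 by as much, and centring moved the mean of 15 by more than their SD. The genotype comparison called 0 in each fit, and leaving out 1 array gave 0 to 0. No paired analysis was possible because the regular-diet groups share no replicate number. Scanner values, and with them signal over background, were not used here.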
